A study of Mus musculus with 6 samples.

Results

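Genes named Zfp followed by a number encode zinc finger proteins, most of them sequence-specific DNA-binding repressors. They were taken as every gene whose symbol in the deposited table was Zfp followed by digits and at most one letter, with a mean raw count of at least 50 over the 6 libraries. The table of 16281 genes held 375 such symbols. Of these, 281 reached the count floor and are called members here, and 94 did not. The members were therefore selected on their own expression level, which is a description and not a finding. The 3 members nearest above the floor were Zfp784 with a mean count of 51.2, Zfp551 with 51.8 and Zfp583 with 52.7. The 3 genes nearest below it were Zfp93 with 47.7, Zfp418 with 46.0 and Zfp385a with 45.7.

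The libraries came from mouse splenic CD8+ T cells of OT1 transgenic animals (C57BL/6, Tg(TcraTcrb)1100Mjb), in which nearly all T cells carry one receptor against a peptide of ovalbumin. Cells were activated for 48 h with antibodies against CD3 and CD28 in the presence of IL-2 and then expanded in IL-2 for 3 days. Throughout this time 3 cultures received 0.5 μM GSK2879552 (GSK), an inhibitor of the histone demethylase LSD1, and 3 cultures received vehicle (Veh). Both groups were thus activated, transgenic and kept in IL-2, and the labels set them apart by the inhibitor alone. The comparison asks how the numbered Zfp genes responded to LSD1 inhibition during activation and expansion.

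C2H2 zinc fingers are short modules that fold around a zinc ion and read DNA bases, and arrays of them give each protein its own target sequence. In many of these proteins a KRAB domain precedes the array and binds the corepressor TRIM28 (KAP1), which brings in the H3K9 methyltransferase SETDB1, HP1 proteins and the NuRD complex and silences the bound site. KRAB zinc finger genes have expanded in tandem clusters in mammals, and many of their products bind transposable elements and imprinted regions. LSD1, encoded by Kdm1a, removes methyl groups from H3K4 within the CoREST complex.

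Translation of the annotated transcripts placed at least 1 C2H2 finger in all but 5 of the 281 members. The median number of fingers was 11 and the highest was 37, in Zfp142. A KRAB-like sequence pattern was found in 162 members, which carried a median of 12 fingers, against 7 in the 119 members without the pattern. A SCAN-like pattern, which marks a dimerisation domain, was found in 10 members, and 3 of these also had the KRAB pattern. The annotation deposited with the counts named a zf-C2H2 factor family for 246 members and ZBTB for 1. Among the members with no C2H2 finger were Zfp36, whose product binds RNA through fingers of the CCCH type, Zfp839, Zfp365 and Zfp703.

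Promoter windows of 300 bases, from 250 bases before to 50 after the annotated start, were given by RefSeq for 237 of the 281 members and for 9422 of the 11698 genes tested (build GRCm38.p6). Member promoters were poorer in G and C, with a median of 54.7% against 60.7% over all genes tested, and those of members with the KRAB pattern had 52.3%. The GC box GGGCGG, read on both strands, was present in 47.7% of member promoters and in 64.4% of all. A longer sequence, GGGANNTGTAGT on either strand, was searched after it was seen in several member promoters. It resembles the recognition sequence known for ZNF143, the human counterpart of Zfp143. It was present in 4.85% of all promoters, in 18.6% of member promoters (44 of 237) and in 25.2% of promoters of members with the KRAB pattern (36 of 143). In the absence of that pattern it was present in 8.51% of member promoters (8 of 94). The following windows belong to the 3 lower members and the 1 higher member with the smallest p among those with a window on file, and capitals mark the sequence where it is present, in Zfp260 and Zfp607b. They lie at chr7:30094826-30095125 on the plus strand (Zfp260, which fell), chr7:27674411-27674710 on the plus strand (Zfp607b, which fell), chr9:88547770-88548069 on the plus strand (Zfp949, which fell) and chr17:21650361-21650660 on the plus strand (Zfp983, which rose).
Zfp260: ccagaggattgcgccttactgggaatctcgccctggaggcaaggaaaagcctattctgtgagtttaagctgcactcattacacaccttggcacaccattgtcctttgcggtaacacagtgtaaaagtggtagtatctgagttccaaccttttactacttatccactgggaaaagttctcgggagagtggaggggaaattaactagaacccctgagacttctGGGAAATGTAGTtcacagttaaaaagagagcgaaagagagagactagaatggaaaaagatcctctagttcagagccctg
Zfp607b: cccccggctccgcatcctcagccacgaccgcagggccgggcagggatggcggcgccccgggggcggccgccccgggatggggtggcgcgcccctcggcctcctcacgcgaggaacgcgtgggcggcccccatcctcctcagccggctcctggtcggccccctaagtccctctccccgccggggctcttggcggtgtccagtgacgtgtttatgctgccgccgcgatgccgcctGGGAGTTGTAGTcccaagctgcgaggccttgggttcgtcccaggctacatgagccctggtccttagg
Zfp949: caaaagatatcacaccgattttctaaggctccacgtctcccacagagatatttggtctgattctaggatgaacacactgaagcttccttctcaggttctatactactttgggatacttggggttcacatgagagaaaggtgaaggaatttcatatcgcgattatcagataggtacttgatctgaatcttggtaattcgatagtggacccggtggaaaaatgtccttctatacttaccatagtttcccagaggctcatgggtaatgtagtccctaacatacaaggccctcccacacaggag
Zfp983: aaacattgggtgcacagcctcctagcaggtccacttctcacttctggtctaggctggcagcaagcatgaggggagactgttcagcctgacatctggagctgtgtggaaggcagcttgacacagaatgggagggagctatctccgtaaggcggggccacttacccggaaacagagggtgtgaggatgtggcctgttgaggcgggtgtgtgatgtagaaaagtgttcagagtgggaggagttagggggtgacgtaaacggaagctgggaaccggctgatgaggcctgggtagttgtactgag

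The Zfp607b window was GC-rich, at 73.3%, whereas those of Zfp260 and Zfp949 had 45.7% and 43.3%. The sequence was present in 12 of the 50 windows of lower members (24%) and in 0 of the 7 windows of higher members. Its share was 18.6% over all member windows, 25.2% with the KRAB pattern and 8.51% without it. Of the 12 windows, 10 belonged to members with the KRAB pattern, and 6 of the 7 higher windows belonged to members without it. These shares were not compared by a test. Among the members with the KRAB pattern, the log2 fold change was -0.19 at the median for the 36 with the marked sequence and -0.17 for the 107 without it. Among the members without the KRAB pattern it was -0.27 for the 8 with the sequence and -0.058 for the 86 without it. Neither difference was tested. A match of letters is a description and does not show that a factor binds.

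Raw counts were scaled by library size and TMM factors to normalised CPM, and GSK was compared with Veh by the quasi-likelihood test of edgeR over 11698 genes, which included all 281 members. Totals were 18288447 to 18918811 counts per Veh library and 19149909 to 19846720 per GSK library. A gene was called up- or downregulated at an adjusted p under 0.05 and a fold over 1.5, and called higher or lower at the adjusted p alone. Of the 5 CD8 T cell markers, all but Trac were tested. Cd8a was measured at 495 to 555 CPM in every library (adjusted p = 0.20). Cd8b1 had 395 to 418 CPM in Veh and 357 to 398 CPM in GSK (adjusted p = 0.072). The 4 tested markers summed to 1596 to 1673 CPM in Veh and 1450 to 1544 CPM in GSK. Of the CD4 T cell markers, Cd4 did not exceed 1.79 CPM and Foxp3 had 1.68 to 4.24 CPM in Veh and 2.76 to 4.99 CPM in GSK, and neither differed by the test (adjusted p = 0.66 and 0.82). The NK cell marker Klrb1c had 1.52 to 2.36 CPM in Veh and 2.33 to 3.68 CPM in GSK (adjusted p = 0.13), and Ncr1 had a mean raw count of 0.17. Of 5 B cell markers only Cd79b passed the filter on low counts, at 5.52 to 7.56 CPM in Veh and 4.64 to 5.11 CPM in GSK, while the remaining ones had mean raw counts of 1.67 to 4.17. Of 5 myeloid markers only Lyz2 and Itgam passed it, with a summed level of 2.63 to 4.19 CPM in Veh against 1.15 to 2.58 CPM in GSK. The part of such cells in the results was not tested. Cd3e and Cd3g fell with GSK (adjusted p = 0.0015 and 6.0e-05).

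The members as a group were lower in GSK-treated cells. No member was upregulated by edgeR, DESeq2 or an unadjusted p under 0.05 with the same fold (0 by each), and 15 were downregulated (5.34% of members), whereas 2.22% of all genes tested were upregulated and 4.09% were downregulated. At the adjusted p alone, 58 members were lower (20.6%) and 9 were higher (3.20%), against a background of 15.5% lower and 16.6% higher. The remaining 214 did not pass. This background includes genes under the count floor. Among the 10177 tested genes that reached the floor, 1.90% were upregulated, 3.52% downregulated, 18.4% higher and 16.7% lower. The share of members called downregulated was thus a little above either background, and the clearer difference was the small share that rose. The 3 GSK values lay below all 3 Veh values in 93 members (33.1%, background 23.0%) and above them in 23 (8.19%, background 23.7%). The median log2 fold change was -0.13 over the members (quartiles -0.28 and 0.0021) and -0.0039 over all genes tested, and 210 of the 281 were below 0. Counts depended on single libraries. Without GSK replicate 3 only 8 members were downregulated, and 10 without Veh replicate 3. The number of lower members was 33 without GSK replicate 1 and 35 without Veh replicate 1. When the fold itself was tested against 1.5, only Zfp395 (adjusted p = 0.010) and Zfp607b (adjusted p = 0.019) remained downregulated.

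**Figure D1:**
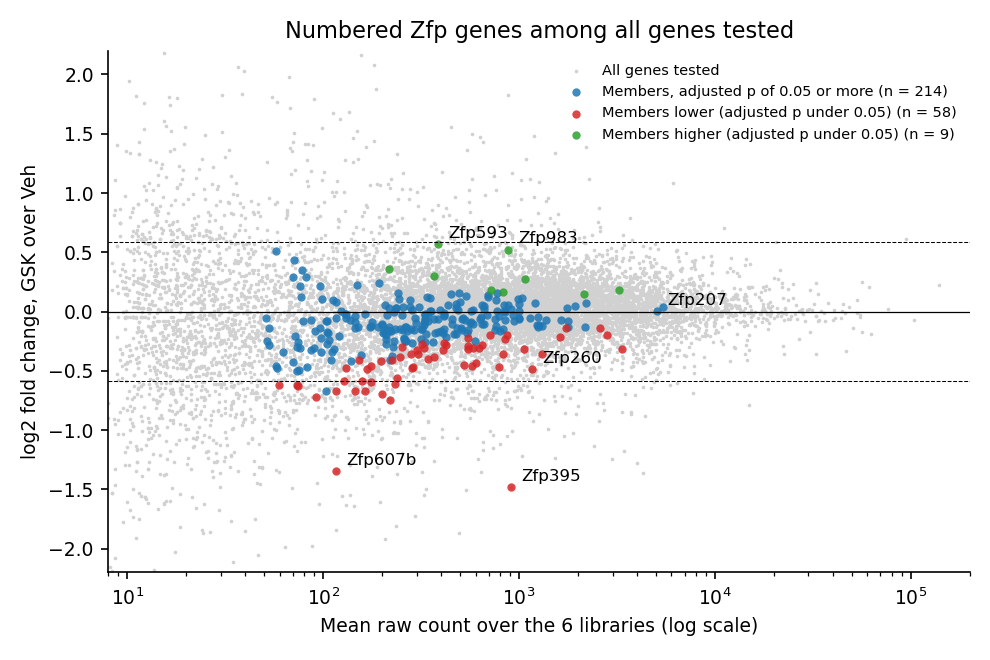
log2 fold change of GSK over Veh (vertical axis) against the mean raw count over the 6 libraries (horizontal log axis), with each tested gene as a grey point and the 281 members in colour by test result. Dashed lines mark a fold of 1.5, and the 58 lower members outnumber the 9 higher ones. Genes outside the axis limits are not drawn.

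Summed over the members, normalised expression was 8029, 7898 and 7804 CPM in Veh replicates 1 to 3 and 7392, 7617 and 7169 CPM in GSK replicates 1 to 3. The groups did not overlap, and the mean decreased by 6.54%. Replicates within the GSK group were uneven, since GSK replicate 3 held the lowest of the 3 GSK values for 133 members and GSK replicate 2 for 58. Over all genes tested these shares were even for the same 2 libraries, at 36.2% and 36.6%. RNA from bulk cultures does not separate less RNA per cell from fewer cells of one kind.

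The fall was larger where the KRAB pattern was present. Of the 162 members with it, 40 were lower (24.7%, background 15.5%), and only Zfp983 was higher (0.617%, background 16.6%). Of the 119 members without it, 18 were lower (15.1%), which is near the background, and 8 were higher (6.72%). The shares downregulated hardly differed, at 9 members with the pattern (5.56%) and 6 without it (5.04%), against a background of 4.09%. Median log2 fold changes were -0.17 and -0.059. Summed levels of the KRAB-pattern members were 3037, 2986 and 2936 CPM in Veh and 2635, 2785 and 2520 CPM in GSK, and their mean decreased by 11.4%. Those of the other members were 4992, 4912 and 4868 CPM in Veh and 4757, 4832 and 4648 CPM in GSK, and their mean decreased by 3.61%. The pattern is a short sequence match that misses divergent KRAB domains, so some members counted without it may carry such a domain. No test was run on this contrast between classes. Leaving out each library in turn gave medians of -0.16 to -0.22 with the pattern and -0.047 to -0.069 without it.

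**Figure D2:**
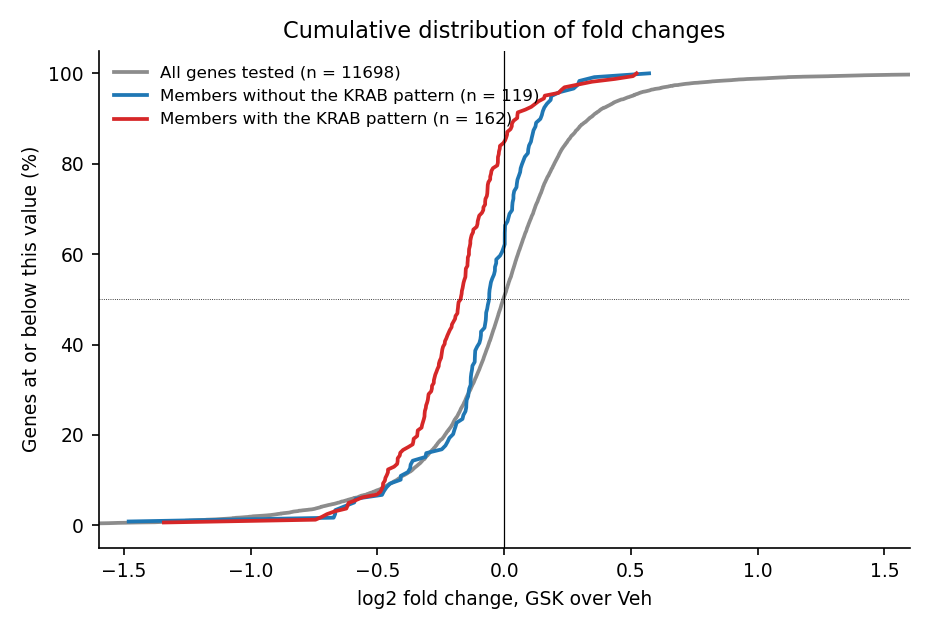
Cumulative share of genes (vertical axis, percent) at or below each log2 fold change of GSK over Veh (horizontal axis) for all 11698 genes tested, the 162 members with the KRAB pattern and the 119 without it. The curve of the KRAB-pattern members lies to the left of the others at the quartiles and at the median of -0.17. That of the remaining members runs closer to all genes, with a median of -0.059. The order does not hold in the lower tail, where the lowest values are -1.34 with the pattern and -1.48 without it.

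The pattern was also seen in KRAB zinc finger genes that carry other names. There were 29 such genes above the same floor. Of these, 8 were lower (27.6%), 2 of them downregulated, and 21 did not pass, with a median log2 fold change of -0.26. None was higher by edgeR, by DESeq2 or at an unadjusted p under 0.05 (0 of 29 by each). The downregulated ones were Gm12258 and Gm14326. Sequence shared with other genes was not measured for these 29, so reads could be shared between near relatives. Number of fingers and expression level moved with the fold change across members, and genes are not independent replicates. The median was -0.18 in the 66 members with 15 or more fingers, -0.12 in the 98 with 10 to 14, -0.12 in the 77 with 5 to 9 and -0.024 in the 40 with fewer (Spearman rho -0.24, n = 281 genes). By mean count, the median was -0.21 for the 82 members under 200 counts, -0.15 for the 126 from 200 to under 600 and -0.059 for the 73 at 600 or more. The fold change also rose with mean count over all 11698 genes tested (rho 0.14, against 0.27 in members), so this trend is not particular to the members. Transcript GC content was 43.6% at the median in members and 49.7% over all genes, and the fold change of members followed it weakly (rho 0.12). It was 41.3% in members with the KRAB pattern and 49.7% in those without it. The KRAB pattern, finger number, GC content and expression level were not separated from one another. An offset for GC content left the median of members at -0.12 with 14 downregulated, and an offset for exon length left it at -0.12 with 12.

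Zfp395, a DNA-binding protein with a single C2H2 finger by this count, showed the largest fall. Its gene lies at chr14:65358676-65398930 (GRCm38) and no other annotated gene overlaps it. Veh replicates had 76.3, 64.2 and 71.7 CPM and GSK replicates had 27.1, 29.2 and 19.6 CPM. Every GSK library was below the lowest Veh library by more than the spread within either group. The log2 fold change was -1.48 ± 0.14 (SE; n = 3 and 3; adjusted p = 0.000346), with GSK replicate 3 the lowest. It stayed downregulated in all 11 alternative fits, which changed the tool, the normalisation, the filter or the block, or left out 1 library.

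Zfp607b, a KRAB-pattern gene with 17 fingers, fell from 8.81, 8.90 and 8.67 CPM in Veh to 4.04, 4.05 and 2.29 CPM in GSK. The Veh values were tightly grouped and the GSK values lay well below them. The log2 fold change was -1.34 ± 0.19 (SE, adjusted p = 0.00027). Of the 31-base words of its transcripts, 20.0% also occurred in other genes, most often in Zfp780b of the same cluster, so reads could be shared between them. Zfp780b itself was lower (log2 fold change -0.30, adjusted p = 0.030) but passed in only 4 of 11 alternative fits. The near relative Zfp607a had a log2 fold change of -0.30 that did not pass (adjusted p = 0.088).

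Zfp949, another KRAB-pattern gene with 11 fingers, had 15.3, 13.6 and 14.7 CPM in Veh and 8.98, 9.72 and 7.35 CPM in GSK. The groups were clearly apart. Its log2 fold change was -0.74 ± 0.12 (SE, adjusted p = 0.000626). Zfp763 had 11.9, 10.03 and 10.04 CPM in Veh and 7.24, 6.73 and 6.10 CPM in GSK (log2 fold change -0.67, adjusted p = 0.0020). Zfp874b had 15.0, 11.5 and 12.8 CPM in Veh and 6.82, 9.31 and 8.08 CPM in GSK (log2 fold change -0.70, adjusted p = 0.0024). No overlap of groups was seen for these genes. Zfp874b shared 37.9% of its 31-base words with other genes, most often Zfp874a, so its level is uncertain. Zfp874a was also lower (log2 fold change -0.41, adjusted p = 0.020).

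Zfp606, Zfp799 and Zfp354c completed the stronger KRAB-pattern responders. Zfp606 averaged 9.93 ± 0.32 CPM in Veh and 6.62 ± 0.87 CPM in GSK (SD, n = 3 each; adjusted p = 0.0049). Zfp799 averaged 14.9 ± 2.16 and 9.74 ± 1.56 CPM (adjusted p = 0.0051). Zfp354c averaged 6.05 ± 0.52 and 3.67 ± 0.92 CPM (adjusted p = 0.014). Zfp128 and Zfp94 were the weakest calls. Zfp128 had a log2 fold change of -0.62 and an adjusted p of 0.036, and it was downregulated in 5 of 11 alternative fits. Zfp94 had a log2 fold change of -0.62 and an adjusted p of 0.045, was downregulated in 4 of 11, and its gene overlaps Zfp61 in the annotation. Without Veh replicate 1 their adjusted p rose to 0.14 and 0.17.

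The downregulated members without the KRAB pattern, besides Zfp395, were Zfp839, Zfp473, Zfp629, Zfp691 and Zfp580. Zfp839 had 9.57, 8.96 and 9.83 CPM in Veh and 5.51, 6.73 and 5.53 CPM in GSK, with no overlap (log2 fold change -0.67, adjusted p = 0.0023). Zfp473 corresponds to human ZNF473, a component of histone pre-mRNA processing, and it averaged 11.1 ± 0.93 CPM in Veh and 7.36 ± 1.67 CPM in GSK (SD; adjusted p = 0.011). Zfp629 averaged 8.10 ± 1.49 and 5.40 ± 0.23 CPM (adjusted p = 0.013), and Zfp691 averaged 4.78 ± 0.19 and 3.09 ± 0.22 CPM (adjusted p = 0.015). Zfp580 averaged 7.49 ± 0.72 and 4.72 ± 1.34 CPM (adjusted p = 0.018), with GSK replicate 3 at 6.15 CPM close to the Veh values. Without Veh replicate 3, the adjusted p was 0.053 for Zfp473, 0.071 for Zfp629 and 0.074 for Zfp580.

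**Figure D3:**
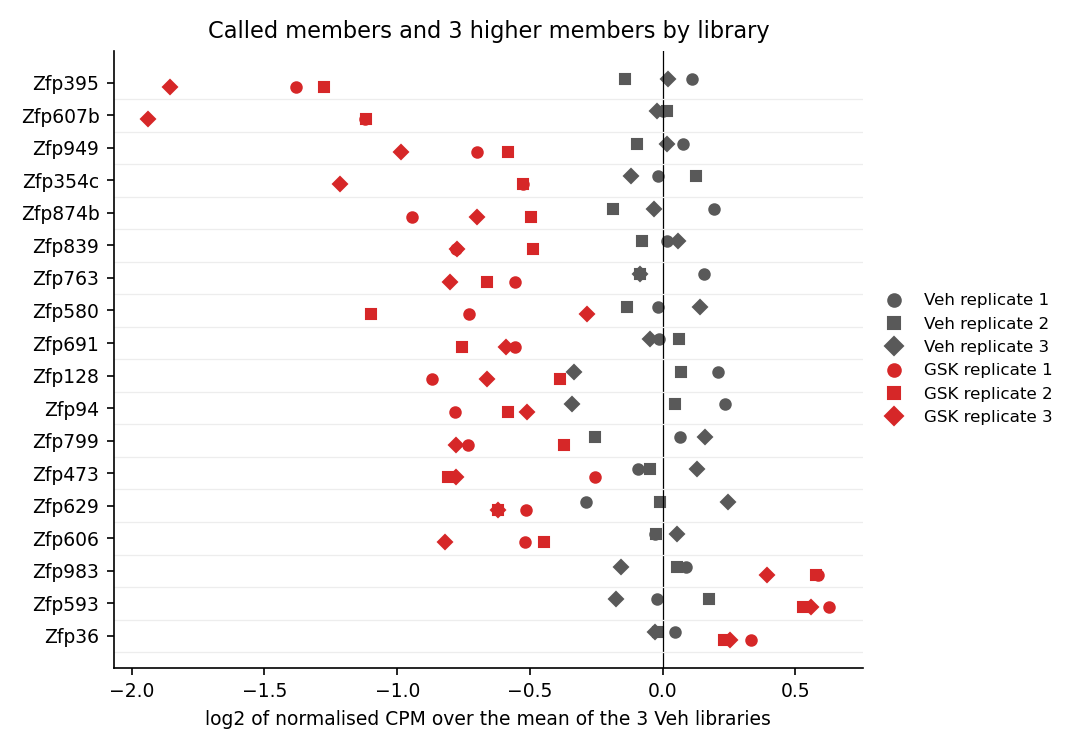
Normalised CPM of the 15 downregulated members and of the higher members Zfp983, Zfp593 and Zfp36 in each library, as log2 of the value over the mean of the 3 Veh libraries (horizontal axis). Grey symbols are Veh and red symbols GSK, with one symbol shape for each replicate number, and GSK replicate 3 is the lowest for Zfp395, Zfp607b and Zfp949.

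Several members fell by less than 1.5-fold with small errors. Zfp260, a transcription factor described in the heart as a partner of GATA4, had the smallest p of all members. It had 74.5, 68.4 and 71.7 CPM in Veh and 50.5, 55.9 and 47.2 CPM in GSK (log2 fold change -0.48 ± 0.066, SE; adjusted p = 0.0002). Both groups were narrow and did not overlap. Zfp654 averaged 77.7 ± 2.92 CPM in Veh and 60.5 ± 4.25 CPM in GSK (SD, n = 3 each). For Zfp950 the means were 48.6 ± 0.85 and 35.1 ± 4.21 CPM. Zfp362 averaged 31.7 ± 2.80 and 23.2 ± 1.12 CPM, and Zfp40 averaged 14.9 ± 0.52 and 10.1 ± 1.01 CPM. Their adjusted p values were 0.00075 to 0.0017, and all of these genes passed in each of the 11 alternative fits. In the annotation Zfp950 overlaps Grk5 and Zfp362 overlaps Gm52679.

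Of the 9 higher members, Zfp983 and Zfp593 rose most, and neither reached a fold of 1.5. Zfp983, a KRAB-pattern gene with 11 fingers, had 40.3, 39.3 and 34.0 CPM in Veh and 56.9, 56.5 and 49.8 CPM in GSK (log2 fold change 0.52 ± 0.077, SE; adjusted p = 0.000331). The lowest GSK value lay above the highest Veh value. Of the 31-base words of Zfp983, 16% also occurred in other genes, most often in Gm10509, so reads could be shared. Zfp593, the counterpart of a ribosome assembly factor, had 16.05, 18.3 and 14.4 CPM in Veh and 25.1, 23.5 and 23.9 CPM in GSK (log2 fold change 0.57 ± 0.094, SE; adjusted p = 0.000662). It overlaps E130218I03Rik and shared 71.5% of its 31-base words with other genes, most often that one, so its counts cannot be assigned to it with certainty. Without Veh replicate 2 or without GSK replicate 2 its log2 fold change was 0.67 or 0.59, and it was then upregulated.

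Zfp36 encodes tristetraprolin, which binds AU-rich elements of cytokine mRNAs and promotes their decay. It had 52.8, 50.6 and 50.2 CPM in Veh and 64.5, 60.1 and 61.1 CPM in GSK (log2 fold change 0.27 ± 0.055, SE; adjusted p = 0.0025). The GSK values were all higher, and the difference passed in all 11 alternative fits. Zfp91, an atypical ubiquitin ligase of the alternative NF-κB pathway, averaged 159 ± 3.05 CPM in Veh and 181 ± 7.24 CPM in GSK (adjusted p = 0.0073), and its gene overlaps Lpxn. Zfp746 (PARIS), a repressor of Ppargc1a and a substrate of parkin, had a log2 fold change of 0.18 (adjusted p = 0.039) that passed in 2 of 11 alternative fits. Zfp365 at 0.36, Zfp280b at 0.15 and Zfp142 at 0.17 passed as narrowly, with adjusted p values of 0.039 to 0.044.

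The most abundant members included genes that differed little. Per kilobase of exon, Zfp207 was highest, at 40.1 CPM per kb in Veh and 40.1 CPM per kb in GSK. Zfp207 (BuGZ), a spindle protein that loads Bub3 on kinetochores, had 263 to 273 CPM in Veh and 265 to 270 CPM in GSK (log2 fold change 0.0022 ± 0.039, SE; adjusted p = 0.97). Zfp106, an RNA-binding protein needed in motor neurons, had 280 to 289 CPM in Veh and 284 to 295 CPM in GSK (adjusted p = 0.51). Zfp871, a KRAB-pattern gene with 16 fingers, had 205, 195 and 185 CPM in Veh and 155, 177 and 138 CPM in GSK (log2 fold change -0.32, adjusted p = 0.018). Zfp292 had 165, 158 and 154 CPM in Veh and 141, 151 and 124 CPM in GSK (log2 fold change -0.20, adjusted p = 0.036). The fall of Zfp292 passed in 6 of 11 alternative fits. In both of these falling genes GSK replicate 3 was lowest and GSK replicate 2 came nearest to Veh.

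A list of 43 numbered Zfp genes with a described role had 38 members. It did not hold Zfp260, Zfp473 or Zfp593. Of these, 3 rose (Zfp36, Zfp91 and Zfp746), 3 fell (Zfp292, Zfp369 and Zfp445) and 32 did not pass, so that 7.89% passed in each direction against 16.6% higher and 15.5% lower over all genes, with a median log2 fold change of -0.020. Zfp445, which maintains imprinting marks, had 142, 142 and 144 CPM in Veh and 127, 131 and 130 CPM in GSK. This small but regular fall (log2 fold change -0.14, adjusted p = 0.023) passed in 6 of 11 alternative fits. Zfp369, related to the neurotrophin receptor interactor encoded by Zfp110, had 16.5, 18.7 and 16.9 CPM in Veh and 12.8, 15.0 and 9.65 CPM in GSK (adjusted p = 0.019). Zfp110 itself, at -0.16, did not pass (adjusted p = 0.15). Among KRAB repressors of known targets, Zfp809, which silences retroviral sequences, had a log2 fold change of 0.011 ± 0.077, and Zfp568, a repressor of a placental Igf2 promoter, had 0.14 ± 0.078 (SE; adjusted p = 0.92 and 0.20).

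Roles close to LSD1 or to T cells were represented by a few members. Zfp217, found in complexes with LSD1 and CoREST, had 124, 119 and 115 CPM in Veh and 106, 113 and 107 CPM in GSK. The groups did not overlap, but the adjusted p of 0.050055 lay just above the threshold. Zfp516 had a log2 fold change of -0.47 ± 0.26 (SE, adjusted p = 0.18) at under 5 CPM in every library. Zfp335, needed for thymic output of naive T cells, had a log2 fold change of -0.052 ± 0.060 (adjusted p = 0.54). Zfp143, whose human counterpart binds a sequence like that searched in the promoters, had 0.14 ± 0.063 (adjusted p = 0.099). Zfp410, an activator of Chd4, had 0.0030 ± 0.062 (adjusted p = 0.97). Zfp592 and Zfp687, partners in one chromatin complex, had -0.13 and -0.15 (adjusted p = 0.077 and 0.13). Zfp281, a repressor in pluripotent cells, Zfp148 and Zfp131 had adjusted p values of 0.24 to 0.57.

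The other members of this list did not pass. Among those that act on RNA, Zfp326, which couples transcription to splicing, had a log2 fold change of 0.15 (adjusted p = 0.12) and Zfp638, an RNA- and DNA-binding nuclear protein, had 0.070 (adjusted p = 0.26). Zfp622, a ribosome assembly factor, had -0.11 and Zfp830, a splicing-associated protein, had -0.0085 (adjusted p = 0.16 and 0.94). Zfp318, which directs IgD expression in B cells, had 0.11 (adjusted p = 0.43). Zfp384, a fusion partner in human leukaemia, had 68.2 to 70.5 CPM in Veh and 62.4 to 63.5 CPM in GSK, so the groups did not overlap, but the adjusted p was 0.056. Zfp703 and Zfp827 had large negative values with wide errors, at -0.41 ± 0.19 and -0.37 ± 0.22 (SE; adjusted p = 0.14 and 0.23). Zfp407 had 0.12 and Zfp609 had 0.075 (adjusted p = 0.17 and 0.34). The adjusted p values of Zfp263, Zfp422, Zfp653, Zfp668, Zfp706, Zfp764 and Zfp831 were 0.21 to 0.87.

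Many members lie in tandem clusters, defined here as runs on one chromosome with gaps of at most 250 kb between neighbours. In 12 clusters of 5 or more genes there were 109 members, of which 26 were lower (23.9%, background 15.5%), 8 of them downregulated (7.34%, background 4.09%), and 2 were higher (1.83%), with a median log2 fold change of -0.15. The 55 members in clusters of 2 to 4 had a median of -0.12. Of these 55, 7 were lower (12.7%), 1 of them downregulated (1.82%), and 0 were higher, so both falling shares were under the background. The 117 members standing alone had a median of -0.11, with 25 lower (21.4%) and 7 higher (5.98%). GSK values lay below all Veh values in 41 of the 109 members (37.6%), 18 of the 55 (32.7%) and 34 of those alone (29.1%), with a background of 23.0%. The difference between clustered and single members was not tested. The largest cluster, at chr13:67038594-67827000, held 20 genes, all with the KRAB pattern. Of these, 19 had a log2 fold change below 0 and 4 were lower, with Zfp874b the strongest and a median of -0.21. A cluster of 8 KRAB-pattern genes at chr7:27674661-28014210 held Zfp607b and had the lowest median, -0.30, with 7 of 8 below 0. In the cluster of 5 at chr9:20345136-20605404 all log2 fold changes were below 0, and Zfp26, Zfp426 and Zfp266 were lower.

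Direction was not uniform within clusters. The 15 genes at chr17:21383707-22456689 included Zfp983, at 0.52, next to 13 genes below 0, 2 of which were lower. The 14 genes at chr7:29768552-30169775 spanned -0.48, for Zfp260, to 0.51, with 9 below 0 and 1 lower. In the cluster of 6 at chr6:47835633-48086986 the median was 0.014, and Zfp746, which was higher, was the one gene that passed. By chromosome, 28 of the 30 members on chromosome 13 were below 0 and 8 were lower, and 19 of the 71 on chromosome 7 were lower. For scale, 74.7% of all members were below 0 and 20.6% were lower, against 50.7% and 15.5% of all genes tested. Differences between chromosomes were not tested. Chromosome 6 carried 14 members with a median of 0.0029.

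**Figure D4:**
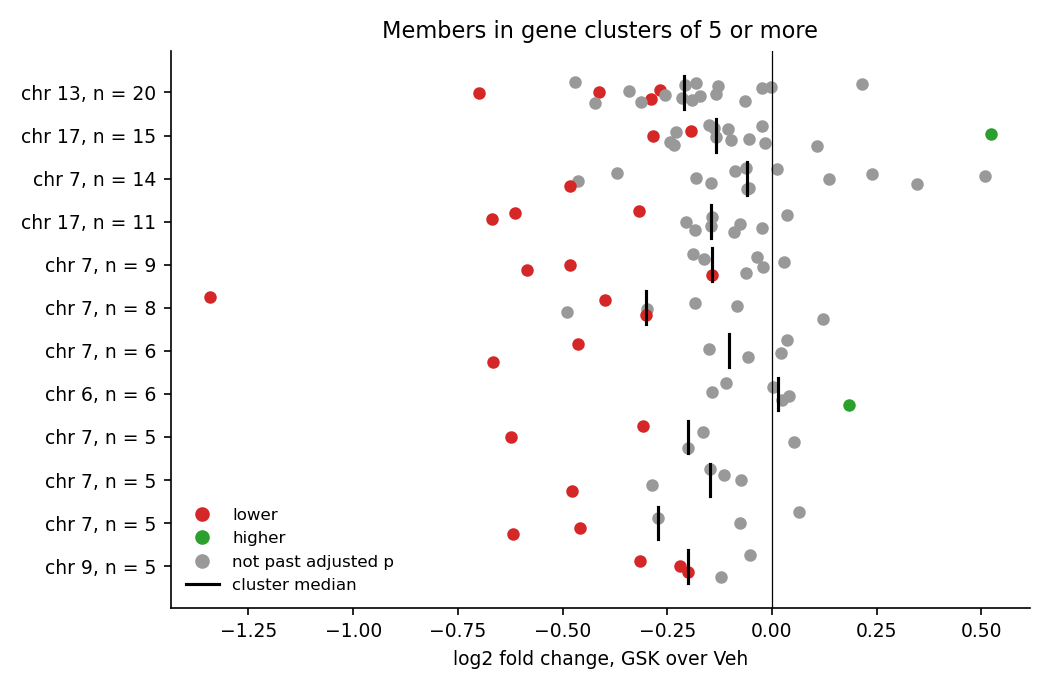
log2 fold change of GSK over Veh (horizontal axis) for each member in the 12 clusters of 5 or more genes, one row per cluster with its chromosome and number of genes. Points are red for lower, green for higher and grey for members that did not pass, bars mark cluster medians, and 11 of the 12 medians lie below 0.

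Reads of near-identical genes can be assigned to the wrong one, so members with distinct sequence were also taken alone. For the 78 members with under 1% of their 31-base words in other genes, the median log2 fold change was -0.11. Of these 78, 16 were lower (20.5%, background 15.5%), 6 of them downregulated (7.69%, background 4.09%), and 3 were higher (3.85%, background 16.6%). Within the 78, the 31 members with the KRAB pattern had a median of -0.21 and 8 were lower (25.8%). The 182 members that overlap no other annotated gene had a median of -0.14, with 39 lower (21.4%) and 6 higher. The shares of lower genes among the 78 and the 182 were thus near the 20.6% of all members. The deposited KEGG annotation put 146 members into the pathway named Herpes simplex virus 1 infection, which collects KRAB zinc finger genes, and 136 of these had the KRAB pattern. Of the 146, 35 were lower (23.97%, background 15.5%) and 1 was higher (0.685%, background 16.6%). Since 136 of the 146 had the KRAB pattern, these shares largely describe genes already counted above and are not separate evidence.

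Silencing genes were examined next. The list joined partners that KRAB zinc finger proteins recruit with genes for DNA methylation, other H3K9 methyltransferases, the HUSH complex, chromatin remodelling and LSD1-CoREST. Its counts therefore do not describe the recruited partners alone. Of 32 silencing genes tested, 6 rose (18.8%), 4 fell (12.5%) and 22 did not pass, shares near those over all genes (16.6% and 15.5%), with a median log2 fold change of 0.013. Kdm1a, the drug target itself, had 89.1 to 99.1 CPM in Veh and 84.0 to 90.9 CPM in GSK (log2 fold change -0.092 ± 0.055, SE; adjusted p = 0.22). Trim28, the corepressor bound by KRAB domains, averaged 315 ± 4.71 CPM in Veh and 339 ± 15.7 CPM in GSK (adjusted p = 0.084), and Setdb1 averaged 79.6 ± 3.06 and 84.4 ± 3.95 CPM (adjusted p = 0.25). The HP1 genes Cbx1, Cbx3 and Cbx5 had log2 fold changes of -0.024, -0.014 and -0.062 and did not pass.

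The silencing genes that rose were Morc2a (log2 fold change 0.30, adjusted p = 0.0011), an effector of the HUSH complex, Hdac2 (0.26, adjusted p = 0.0052), Uhrf1 (0.20, adjusted p = 0.0045), which maintains DNA methylation, Morc3 (0.18, adjusted p = 0.029), Pphln1 (0.18, adjusted p = 0.045) and Dnmt3b (0.31, adjusted p = 0.047). Those that fell were the NuRD ATPase genes Chd3 (log2 fold change -0.32, adjusted p = 0.0010) and Chd4 (-0.12, adjusted p = 0.012), the H3K9 methyltransferase gene Ehmt2 (-0.25, adjusted p = 0.0019) and Zmym2 (-0.27, adjusted p = 0.0019), whose product joins LSD1 and CoREST. The changes in Pphln1, Dnmt3b and Morc3 did not pass in 7, 6 and 3 of the 11 alternative fits.

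**Figure D5:**
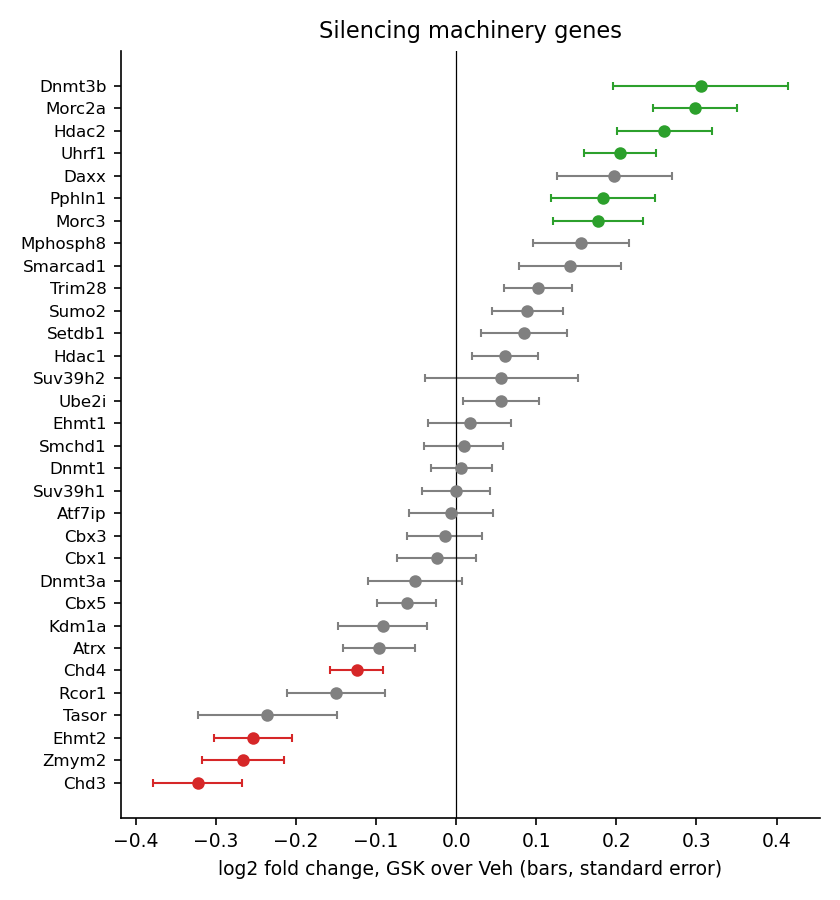
log2 fold change of GSK over Veh (horizontal axis, bars give the standard error) for the 32 silencing genes tested, one gene per row in order of fold change. Green points rose, red points fell and grey points did not pass, and Trim28, Setdb1 and Kdm1a are among the grey ones.

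Other zinc finger families were taken with the same count floor. Of 75 genes of the Zbtb, Zkscan, Zscan, Klf and Zc3h families, 24 were lower (32.0%, background 15.5%), 6 of them downregulated (8%, background 4.09%), and 6 were higher (8%, background 16.6%), with a median log2 fold change of -0.16. The 35 Zbtb genes, which join zinc fingers to a BTB domain, had a median of -0.11, with 10 lower (28.6%) and 1 higher. The 8 Zkscan genes had a median of -0.26, with 3 lower (37.5%). Zkscan14, 1 of these 3, was also counted among the 29 KRAB zinc finger genes with other names. The 10 Klf genes, regulators of T cell quiescence and trafficking among them, had -0.30, with 5 lower (50%) and 1 higher (10%), and Klf2 averaged 61.8 ± 9.27 CPM in Veh and 29.8 ± 5.21 CPM in GSK (SD, n = 3 each; adjusted p = 0.0030). The 14 Zc3h genes, whose CCCH fingers bind RNA, had a median of -0.051, with 2 lower (14.3%) and 4 higher (28.6%). In families this small a share moves widely with 1 gene.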

How the data were processed

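Poly(A) RNA of 6 cultures of CD8+ T cells, 3 Veh and 3 GSK, was sequenced as stranded libraries on one platform. According to the submitters' processing notes and the study's methods, the authors trimmed reads with Trimmomatic, aligned them to GRCm38 with HISAT2 2.1.0, counted them with HTSeq 0.11.2 and used Cufflinks 2.2.1 and DESeq2 1.22.2. The annotation release and the strand setting are not given in the sources used here, so antisense partners may share reads. The deposited values used are raw counts per gene, one column for each library, with gene annotation beside them. No column of the authors' own comparisons was used.

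Counts were tested with edgeR 4.0.16 (R 4.3.3), with filterByExpr, TMM factors and the robust quasi-likelihood test, Benjamini-Hochberg adjusted over 11698 genes. The script was tested on simulated data. The standard error is the absolute log2 fold change over the square root of F. The labels give 3 samples per group and the study's methods name separate mice, but whether samples of the same number share a mouse is not stated. Correlations of their deviations were -0.052, -0.081 and 0.16, so samples were not paired, and p-values measure the spread between these samples. Replicates differed by more than counting noise (chi-square per degree of freedom 4.38 to 10.4).

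Exon length, fingers, KRAB and SCAN patterns and shared 31-base words came from the GENCODE vM21 transcripts, which stood in for RefSeq proteins, and all 281 members matched. The finger pattern was C, 2 to 5 residues, C, 12 residues, H, 3 to 5 residues, H. The KRAB pattern required either of 2 short motifs and misses divergent domains, and 100 members had both. Its motifs were adjusted after matches among the members were seen. Gene coordinates and promoters are RefSeq GRCm38.p6. Genes were named by rule: all called members, the 5 most abundant, up to 5 further members by p in each direction at the adjusted p alone, and members with a described role. Other genes are named as examples of clusters, near relatives and families, and were chosen after their values were seen. The members and lists were chosen with earlier results of these data known. DESeq2 1.42.0, RLE factors, other filters, a replicate block, glmTreat, other count floors and leaving out each library were tried, as were offsets for exon length and GC content, added after seeing the data.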

Additional observations from a re-analysis of the deposited data

How the results depend on the processing

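The 15 downregulated members numbered 12 with a replicate block, 13 with DESeq2 and 2 when the fold was tested against 1.5. Leaving out one library gave 8 to 15, and 33 to 61 lower members (22 to 40 with the KRAB pattern, 11 to 21 without). The 9 higher members numbered 4 with DESeq2, 4 with the replicate block and 3 to 7 without one library, and the 8 of them without the KRAB pattern numbered 3, 3 and 2 to 5. The 1 with the pattern became 1 to 2. Upregulated members numbered 1 with a floor of 20 counts and 0 to 1 without one library. Higher silencing genes numbered 3 to 9 and lower ones 4 to 6 without one library. In the replicate block 51 members were lower, and same-numbered samples were not shown to belong together. The median log2 fold change of members stayed between -0.11 and -0.15 in every alternative run. No named gene that passed the adjusted p changed direction. Over all named members, silencing genes and alternatives, 950 comparisons kept their side of the threshold, 80 lost and 26 gained significance. The causes were not tested. The weakest calls, Zfp128 and Zfp94, had mean raw counts of 73.3 and 59.2, but Zfp691, at 74.5, passed in all 11 refits.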

Other observations

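Of the numbered Zfp genes under the count floor, 31 were tested. The median log2 fold change of these genes was -0.29, with 23 of 31 below 0. At the adjusted p alone 3 were lower (9.68%, background 15.5%) and 1 was higher (3.23%, background 16.6%). Both shares were thus under those of all genes tested. The higher gene, Zfp385a, had 1.69, 1.82 and 1.94 CPM in Veh and 2.83, 2.83 and 3.23 CPM in GSK (log2 fold change 0.70, adjusted p = 0.028). Its mean raw count was 45.7.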
